A study of Mus musculus with 40 samples.

Results

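The transcriptome of WT bone marrow-derived macrophages (BMDMs) was compared between 3 and 6 hr of stimulation with lipopolysaccharide (LPS, 10 ng/ml), a component of the outer membrane of Gram-negative bacteria. The comparison holds 8 of the 40 libraries of the series, 4 at each time, chosen by their labels. Each of the WT mice 25, 69, 87 and 88 gave a library at both times, so the change was computed within each mouse. The mice were males of a mixed C57BL/6J and 129 background, and the labels put mice 25 and 88 in batch 1 and mice 69 and 87 in batch 2. The cells were grown from bone marrow with L cell conditioned medium, a source of the growth factor M-CSF, and poly(A) RNA was sequenced. Untreated WT cells, WT cells at 1 and 9 hr of LPS, and LPS-stimulated BMDMs at 3 and 6 hr from mice with a total knockout of *Cpeb4* (Cpeb4-/-) are given only beside the WT change.

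The authors deposited regularized log (rlog) values of 27179 genes, a log2 scale corrected for library size on which differences of weakly expressed genes are shrunken. The 13078 genes whose rlog averaged 2.32 (log2 of 5) or more over the 8 libraries were tested, and every change is the 6 hr value minus the 3 hr value on this log2 scale. A fold computed from it is likewise on the shrunken scale, and levels are not compared between genes, since they are not divided by gene length. The table holds no counts, so the depth behind each value is unknown and the spread between the 4 mice sets the precision: the median standard error (SE) of a change was 0.0732.

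LPS binds TLR4 with the help of CD14 on macrophages and starts a wave of transcription through NF-kB, AP-1 and IRF3. Early products such as TNF and the neutrophil-attracting chemokines are followed by interferon beta, which acts back on the cells through JAK and STAT proteins and induces antiviral genes. Feedback inhibitors and mRNA decay factors then limit the response. Among the latter, tristetraprolin (TTP, encoded by *Zfp36*) binds AU-rich elements in 3′ UTRs and promotes shortening of the poly(A) tail, whereas CPEB4 binds cytoplasmic polyadenylation elements and promotes its lengthening.

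All 9 macrophage markers passed the filter, and their summed level (log2 of the sum of 2 to the power of each rlog) was 19.35 to 19.39 at 3 hr and 19.31 to 19.38 at 6 hr. *Lyz2* was the highest of them, at 18.54 and 18.33, and weighs most in this sum. Taken singly, 5 of the 9 rose, 2 of them by at least 1, 2 fell and 2 were not called. Their median change was 0.14, and -0.13 under quantile normalization. Of 7 erythroid, megakaryocyte and mast cell markers only *Pf4* and *Itga2b* passed, and *Hba-a1* and *Hbb-bs*, which encode hemoglobin, were listed at 0. *Pf4*, which encodes platelet factor 4, was at 12.78 ± 0.26 at 3 hr and 12.49 ± 0.14 at 6 hr (SD, n = 4) and fell by 0.28, and the summed level of that list was 12.40 to 13.01 and 12.32 to 12.64. *Itga2b* was at 3.63 and 3.54, so that sum came almost only from *Pf4*. Only *Cd4* of 6 T and NK cell markers, *Cd79b* of 5 B cell markers, *Zbtb46*, *Xcr1* and *Itgae* of 6 dendritic cell markers and *Dcn* and *Acta2* of 6 fibroblast and stroma markers passed the filter. In bulk RNA, fewer cells of a type and less RNA per cell cannot be told apart. Libraries of the same time correlated across genes with r of 0.9969 to 0.9975 at 6 hr and 0.9924 to 0.9976 at 3 hr. The 3 hr libraries of mice 25 and 87 differed by a median of 0.075 per gene, those of mice 69 and 88 by 0.124 and those of mice 87 and 88 by 0.223. This pattern at 3 hr did not follow the batch. Some results are given below per mouse, and the part of this pattern in them was not tested.

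From 3 to 6 hr, 4449 genes rose and 4083 fell at an adjusted p under 0.05 (limma with the mouse as a block, Benjamini-Hochberg adjustment), which is 34.0% and 31.2% of the genes tested. With each library centred on its median, 5297 rose and 3408 fell, so that rises made up 60.9% of the calls beside 52.1% as deposited. The shares of 34.0% and 31.2% are the background for the gene groups described below. The median absolute change over all genes tested, called or not, was 0.325. By at least 1 on the log2 scale, 583 genes rose (4.46%) and 747 fell (5.71%), and all 4 mice moved the same way for all 583 and for 746 of the 747. By at least 2, 53 genes rose and 42 fell. For 7487 genes (57.2%) the values at 6 hr did not overlap those at 3 hr. With the same centring, 713 genes rose and 614 fell by at least 1, so which direction prevailed changed with the scaling.

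**Figure D1:**
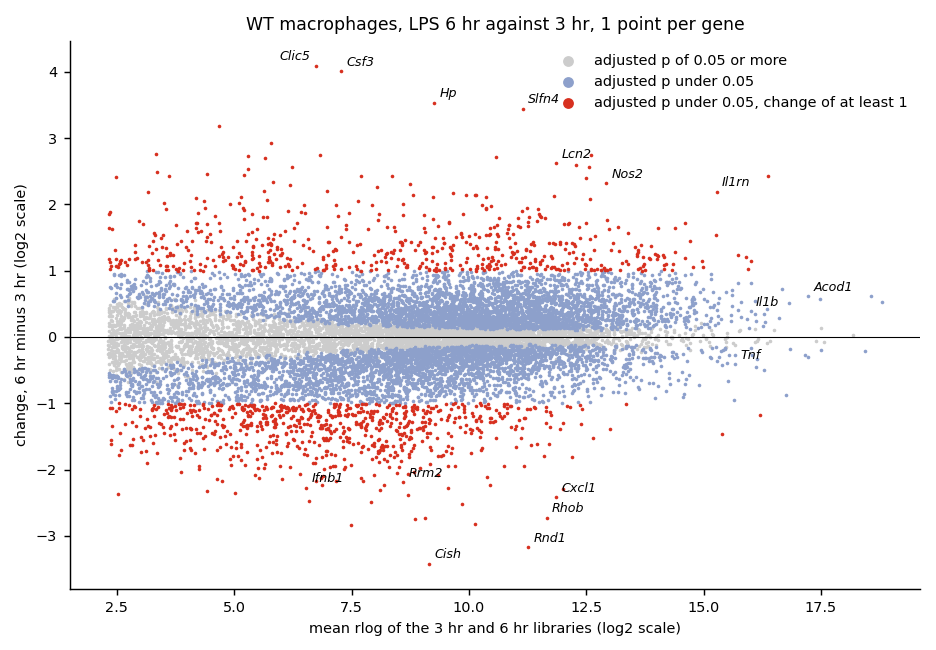
Change from 3 to 6 hr (6 hr minus 3 hr, log2 scale) against the mean rlog of the 8 libraries, 1 point per tested gene, with genes at an adjusted p under 0.05 in blue and those that also changed by at least 1 in red. *Clic5* and *Csf3* lie highest, *Cish* and *Rnd1* lie lowest, and the 583 rises and 747 falls of at least 1 are spread over most of the range of levels.

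Of the 583 genes that rose by at least 1, 422 had their highest mean of the 5 times at 6 hr and 132 at 9 hr. Of the 747 that fell by at least 1, 332 had been highest at 1 hr, 235 in untreated cells and 180 at 3 hr. At 6 hr, 643 of the 747 (86.1%) lay under their untreated mean, where 50.4% of all tested genes did, and 544 of the 583 (93.3%) lay above it. These counts use the 6 hr libraries that also chose the genes, so they describe where the genes ended and test nothing.

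**Figure D2:**
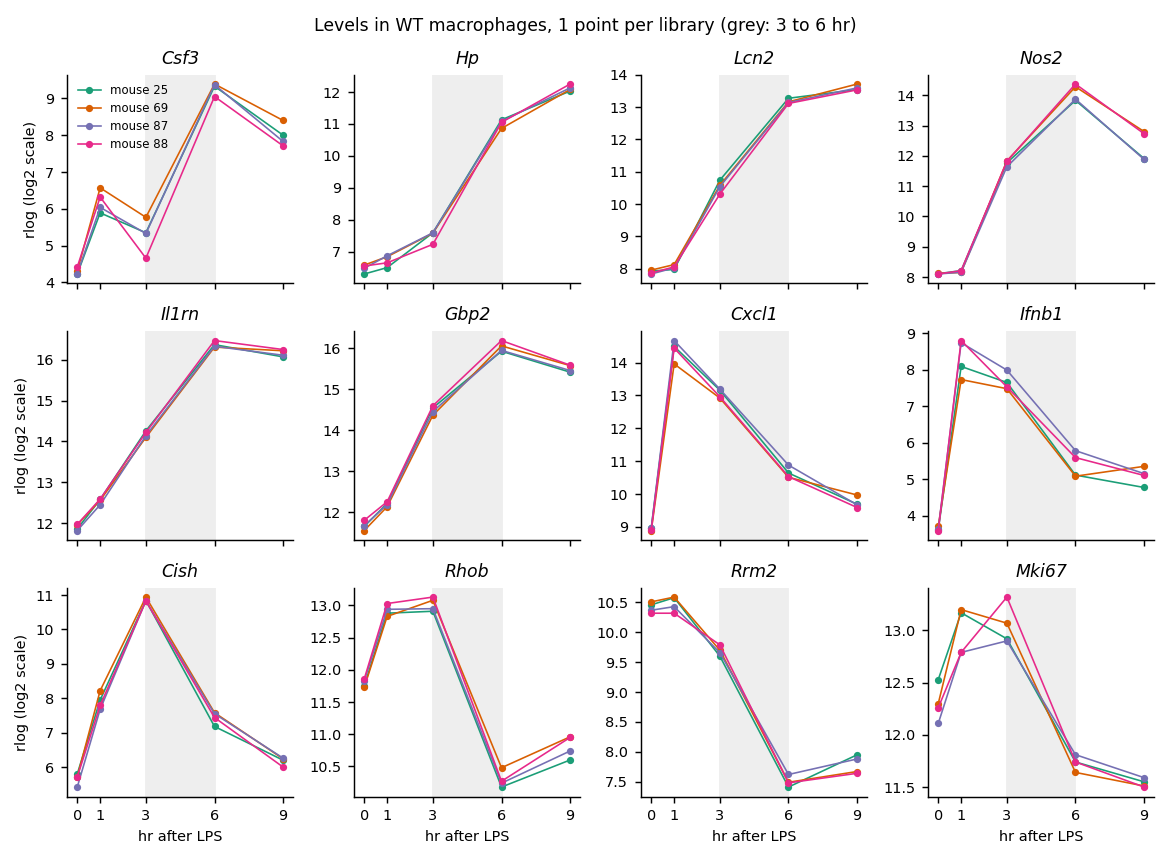
rlog values (log2 scale) of 12 genes in WT macrophages against hr after LPS, 1 line per mouse and 1 point per library, with the interval from 3 to 6 hr in grey. *Csf3*, *Hp*, *Lcn2*, *Nos2*, *Il1rn* and *Gbp2* are higher at the end of the grey interval in all 4 mice, and *Cxcl1*, *Ifnb1*, *Cish*, *Rhob*, *Rrm2* and *Mki67* are lower.

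The 12 largest rises that all 4 mice shared were those of *Clic5*, *Csf3*, *Hp*, *Slfn4*, *Angpt1*, *Fap*, *Chdh*, *Prokr1*, *Ms4a4c*, *Wfdc21*, *Serpina3g* and *Fbn1*, between 2.69 and 4.09. *Clic5* encodes a member of the chloride intracellular channel family (chr17:44134762-44280169, mm10). It was at 4.59, 4.75, 4.49 and 4.93 at 3 hr in mice 25, 69, 87 and 88, and at 8.57, 8.66, 8.60 and 9.31 at 6 hr. Every 6 hr library lay far above every 3 hr library, a change of 4.09 (SE 0.099, adjusted p = 7.1e-08) or 17.1-fold.

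*Csf3* encodes G-CSF, the growth factor of neutrophils (chr11:98700183-98703631). In the same order of mice it read 5.35, 5.77, 5.33 and 4.66 at 3 hr and 9.33, 9.39, 9.38 and 9.05 at 6 hr. The groups did not overlap, and mouse 88 was lowest at both times. The change of 4.01 (SE 0.12, adjusted p = 1.2e-07) came to 16.1-fold and was 4.19 in batch 1 and 3.83 in batch 2. *Csf3* stood at 4.30 ± 0.09 (SD, n = 4) in untreated cells and 6.21 ± 0.30 at 1 hr, so its 3 hr mean of 5.28 ± 0.46 lay between them and the 6 hr mean was the highest of the course.

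*Fap* (2.93, SE 0.13) and *Fbn1* (2.69, SE 0.12) encode a membrane protease and an extracellular matrix protein best known from fibroblasts. Of 6 fibroblast and stroma markers, 4 (*Col1a1*, *Col1a2*, *Col3a1* and *Pdgfra*) lay under the filter. *Dcn* rose by 0.96, *Acta2* was not called (0.27), and the summed level of the list was 4.79 to 5.04 at 3 hr and 5.05 to 5.48 at 6 hr. The part of such cells in the 2 changes was not tested.

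The 12 largest falls were those of *Cish*, *Rnd1*, *Rhof*, *Phldb1*, *St6gal1*, *Rhob*, *Nav2*, *Arhgap18*, *Rps6ka5*, *Rasgrp3*, *Cxcl1* and *Zdhhc14*. *Cish*, a SOCS family inhibitor of cytokine receptor signalling (chr9:107296659-107302784), was at 10.84, 10.94, 10.83 and 10.83 at 3 hr and at 7.18, 7.58, 7.55 and 7.44 at 6 hr. The mice were nearly alike at 3 hr and all fell, by 3.42 on average (SE 0.072, adjusted p = 6.3e-08). *Cish* was at 5.66 in untreated cells and 6.17 at 9 hr, so its highest mean was that of 3 hr.

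*Rhob* (chr12:8497661-8500009) was at 12.91, 13.08, 12.96 and 13.13 at 3 hr and at 10.18, 10.48, 10.24 and 10.27 at 6 hr, with an SE of the change of 0.053. The 6 hr values were also under the untreated level of 11.79 ± 0.06 (SD, n = 4). *Rnd1* (chr15:98669205-98677461) went from 7.35 ± 0.05 in untreated cells to 12.85 ± 0.23 at 3 hr and 9.67 ± 0.10 at 6 hr. The changes of *Rhof*, *Nav2* and *Rasgrp3*, an exchange factor for Ras, were -2.83, -2.72 and -2.47.

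Secreted antimicrobial and acute phase proteins rose together. Of 10 genes 9 rose, 7 of them by at least 1, and 1 fell, with a median change of 2.26 beside 0.019 over all genes tested. The median of the list was 1.88, 2.44, 1.95 and 2.50 in mice 25, 69, 87 and 88. Haptoglobin (*Hp*, chr8:109575128-109579172), which binds free hemoglobin, was at 7.59, 7.58, 7.59 and 7.23 at 3 hr and at 11.13, 10.86, 11.08 and 11.05 at 6 hr in mice 25, 69, 87 and 88. All 6 hr values were higher than all 3 hr values, and the change was 3.53 (SE 0.085, adjusted p = 7.1e-08).

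Lipocalin 2 (*Lcn2*, chr2:32384637-32387739), which withholds iron from bacteria, went from 10.54 ± 0.18 to 13.17 ± 0.07 (SD, n = 4). The serum amyloid gene *Saa3* went from 15.17 ± 0.31 to 17.59 ± 0.09 and complement factor B (*Cfb*) from 11.29 ± 0.11 to 13.69 ± 0.04, and in none of the 3 did the groups overlap. *C3*, the central complement component, rose by 1.09, and *Slpi*, a protease inhibitor, by 0.59. Lysozyme 2 (*Lyz2*) fell by 0.22, a call lost in 7 alternative settings. *Serpina3g* (2.71) and *Serpina3f* (2.12) belong to a family of close copies among which reads could be split. Granulocytes make several of these proteins too. Of 9 neutrophil and precursor markers, *Ly6g*, *Ltf*, *Mpo*, *Elane* and *Prtn3* lay under the filter. *S100a8* rose by 1.35 and *Camp* by 0.85, *Ngp* fell by 0.81, and *S100a9* was not called (-0.41, SE 0.3). The median of these 4 changes was 0.22, with 0.61 in batch 1, -0.18 in batch 2 and 0.06 (without mouse 88) to 0.42 (without mouse 87) when 1 mouse was left out. The summed level of the list was 6.79 to 7.34 at 3 hr and 7.56 to 8.07 at 6 hr. Its part in the rise was not tested.

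Cytokine mRNAs moved in both directions. Of 19 inflammatory cytokines 6 rose, 9 fell and 4 were not called, with a median change of -0.25 that was -0.13 without mouse 25, -0.39 without mouse 69, -0.40 in batch 1 and -0.11 in batch 2. After *Csf3*, the largest rises were those of *Il18*, an inducer of interferon gamma (1.66, SE 0.09), and *Osm* (0.94, SE 0.09). The largest falls were those of *Ifnb1*, which encodes interferon beta (-2.27, SE 0.11), of *Csf2*, which encodes GM-CSF (-1.71, SE 0.16), and of *Il23a*, a subunit of IL-23 (-1.70, SE 0.23). *Ifnb1* was at 7.65, 7.48, 8.00 and 7.53 at 3 hr and at 5.11, 5.08, 5.78 and 5.59 at 6 hr. The groups did not overlap, and the highest mean of the course was 8.34 at 1 hr.

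*Tnf* fell from 15.87 ± 0.04 to 15.46 ± 0.04 (SD, n = 4), a change of -0.41 (SE 0.046, adjusted p = 7.9e-05). The interleukin 1 genes *Il1b* and *Il1a* rose by 0.39 (SE 0.056) and 0.37 (SE 0.085). For *Il6* no change was called (0.14, SE 0.12, adjusted p = 0.32). Its values were 12.41, 12.08, 12.52 and 12.28 at 3 hr and 12.16, 12.60, 12.44 and 12.65 at 6 hr, so the groups overlapped and it was higher at 6 hr in mice 69 and 88 and lower in mice 25 and 87. The anti-inflammatory cytokine *Il10* fell by 0.38 (SE 0.093), with groups that overlapped.

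Of 8 CXC chemokines 6 fell, 1 rose and 1 was not called (median -0.42, with -0.56 in batch 1 and -0.27 in batch 2). *Cxcl1*, which attracts neutrophils (chr5:90891245-90893121), was at 13.16, 12.92, 13.19 and 12.96 at 3 hr and at 10.64, 10.51, 10.88 and 10.54 at 6 hr. It fell in every mouse, by 2.42 on average (SE 0.048, adjusted p = 6.3e-08), after a mean of 14.39 at 1 hr. *Cxcl2* and *Cxcl3*, which lie near *Cxcl1* on the same chromosome and act on the same receptor, fell by 0.90 (SE 0.045) and 1.66 (SE 0.063). *Cxcl9*, which attracts T cells, was the member that rose (1.05, SE 0.18). Of 12 CC chemokines, 5 rose, 1 fell and 6 were not called (median 0.11, with 0.06 without mouse 88 and 0.01 under quantile normalization). Their median was -0.01, 0.24, 0.01 and 0.23 in mice 25, 69, 87 and 88. *Ccl8*, *Ccl12* and *Ccl5* rose by 1.49, 1.17 and 1.14, and *Ccl4* fell by 0.46. The rise of *Ccl2* (0.47, SE 0.13) was called, but its groups overlapped and under quantile normalization it was 0.17 and not called.

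Of 26 feedback inhibitors of LPS signalling 10 rose, 13 fell and 3 were not called (median -0.15). *Il1rn*, which encodes the interleukin 1 receptor antagonist (chr2:24336860-24351491), was at 14.27, 14.10, 14.14 and 14.21 at 3 hr and at 16.38, 16.31, 16.33 and 16.47 after 6 hr, for a rise of 2.19 (SE 0.048, adjusted p = 6.3e-08) with groups far apart. *Irak3*, an inhibitor of the IRAK kinases, rose by 1.33 and the MAP kinase phosphatase *Dusp1* by 0.61. Besides *Cish*, the falls included *Dusp14* (-1.76), *Socs2* (-1.49), *Socs1* (-0.89) and *Tnfaip3* (-0.39), which encodes the ubiquitin-editing enzyme A20. *Socs3* rose by 0.28 on the deposited scale and was at -0.01 under quantile normalization.

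The mRNA decay and poly(A) tail factors rose more often than they fell, 18 against 6 of 35 with 11 not called (median 0.16). *Zfp36* was at 14.77, 14.81, 14.75 and 14.59 at 3 hr and at 15.26, 15.38, 15.29 and 15.27 at 6 hr. All 6 hr values lay above all 3 hr values, a change of 0.57 (SE 0.05, adjusted p = 1.7e-05), and both times were under the 1 hr mean of 16.01. Its paralog *Zfp36l1* fell by 0.66 (SE 0.073). *Tent5c*, a noncanonical poly(A) polymerase, rose by 2.21 (SE 0.095), the endonuclease gene *Zc3h12d* by 1.33 and *Btg2*, a partner of the CCR4-NOT deadenylase, by 0.99. Of the genes that encode CPEB proteins, *Cpeb1* fell by 1.10 (SE 0.14) and *Cpeb2* and *Cpeb3* rose by 0.86 (SE 0.058) and 0.86 (SE 0.066).

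*Cpeb4* (chr11:31870104-31935635) was at 9.26, 10.06, 8.82 and 10.88 at 3 hr and at 10.42, 10.67, 10.09 and 10.62 at 6 hr in mice 25, 69, 87 and 88. It was higher at 6 hr in 3 mice and lower in mouse 88, and the groups overlapped. The mean change was 0.69 (SE 0.21, adjusted p = 0.02), and the call was lost in 7 alternative settings, among them the fit without the mouse block (adjusted p = 0.11) and the fit of all 20 WT libraries (adjusted p = 0.055).

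Genes induced by interferon rose. Of 36 type I interferon-stimulated genes 30 rose, 14 of them by at least 1, 1 fell and 5 were not called, with a median of 0.83. *Ifi44* rose by 1.94 (SE 0.099), the exonuclease gene *Isg20* by 1.83 (SE 0.073), and *Irf7*, a transcription factor of the interferon response, by 1.45. *Mx2*, which is annotated as a transcribed pseudogene, fell by 0.75 (SE 0.11), and *Ifit1* was not called (0.088, SE 0.084, adjusted p = 0.38). The median of the list was 0.57 under quantile normalization and 0.91 with each library centred on its median. As deposited, it was 0.73, 1.00, 0.71 and 1.00 in mice 25, 69, 87 and 88.

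The GBP and IRG GTPases, which attack the vacuoles of intracellular pathogens, showed 13 rises among 15 genes, 10 of them by at least 1, no fall and a median of 1.08. In mice 25, 69, 87 and 88 that median was 0.95, 1.25, 1.02 and 1.27. *Gbp2* (chr3:142620663-142638008) was at 14.55, 14.37, 14.46 and 14.60 at 3 hr and at 15.93, 16.06, 15.95 and 16.19 after 6 hr, for a change of 1.54 (SE 0.059, adjusted p = 3.0e-07), and the groups lay apart. *Gbp6* rose by 1.94 and *Tgtp2* by 1.53, and *Irgm2* was not called (0.087). Members of these families and of the Oas family are close copies, and reads could be split among them. MHC class I presentation genes rose in 15 of 16 cases. Their median was 0.60, with 0.44, 0.71, 0.48 and 0.87 in mice 25, 69, 87 and 88. *Nlrc5*, their transcriptional activator, rose by 1.31 (SE 0.093) and the peptide transporter *Tap2* by 0.85 (SE 0.071).

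Of 15 MHC class II and costimulation genes 3 rose, 8 fell and 4 were not called (median -0.24). *Ciita*, the activator of MHC class II genes, fell by 1.73 (SE 0.11), while *Pdcd1lg2* and *Cd274*, which encode the PD-1 ligands PD-L2 and PD-L1, rose by 2.11 (SE 0.17) and 1.10 (SE 0.053). *Cd86*, a ligand of CD28, was the remaining member that rose (1.06).

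**Figure D3:**
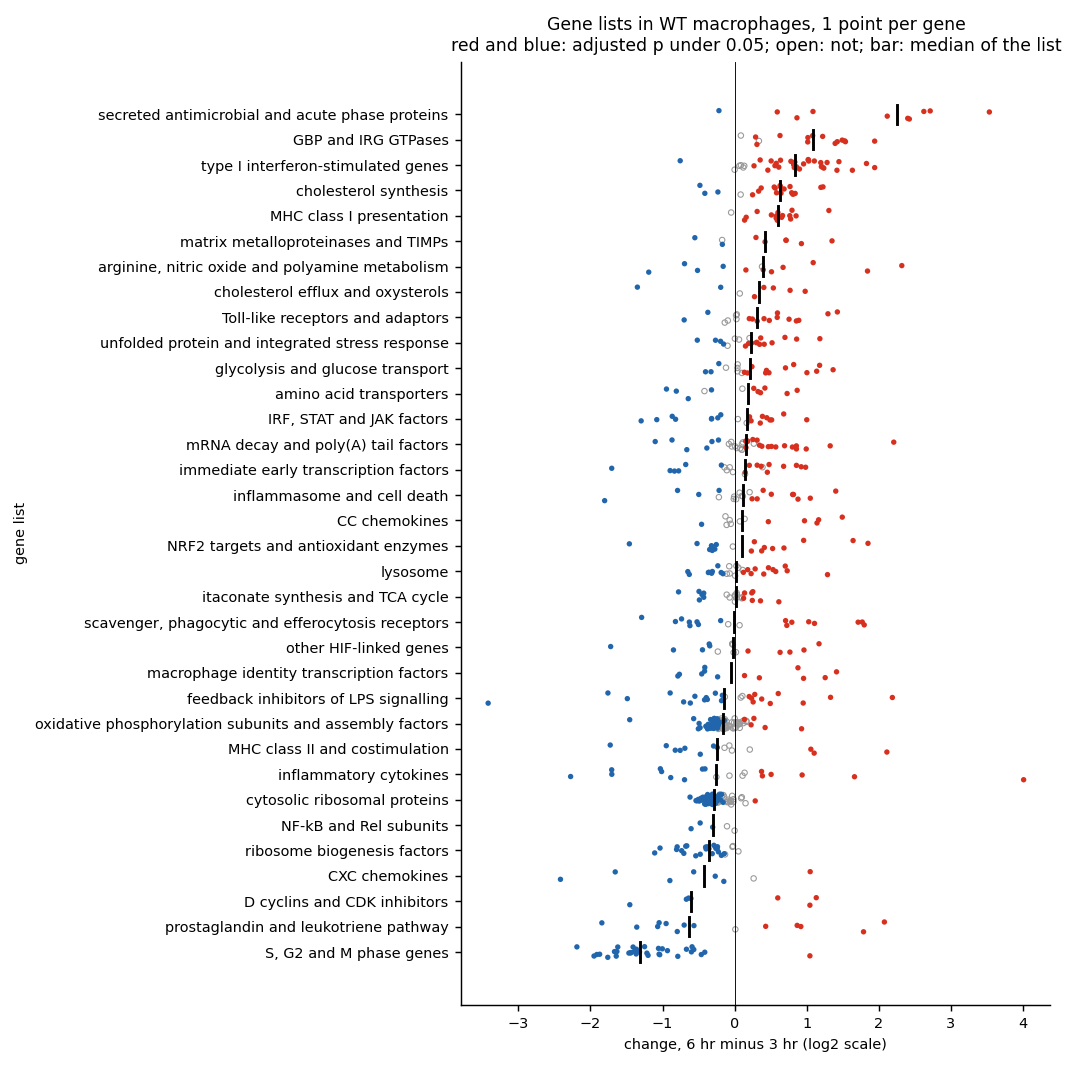
Change from 3 to 6 hr (log2 scale) of each tested member of the gene lists, 1 point per gene, with adjusted p under 0.05 in red (rose) or blue (fell), open circles for genes not called and a black bar at the median of the list. The lists are ordered by their medians, from 2.26 for secreted antimicrobial and acute phase proteins to -1.32 for S, G2 and M phase genes.

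Matches to the interferon-stimulated response element (ISRE, GAAANNGAAA) were counted on both strands from 250 bases before to 50 bases after the RefSeq start of 10091 tested genes (GRCm38.p6). The window held a match in 3.97% of all of them, in 11.9% of the 427 that rose by at least 1 and in 2.8% of the 572 that fell by at least 1. Among the lists, 13 of 26 type I interferon-stimulated genes and 9 of 10 GBP and IRG genes with a window held one. Stretches of 30 bases are shown for *Gbp2*, *Gbp3*, *Isg15* and *Igtp*, which rose by 1.54, 1.22, 0.96 and 0.63, and for *Ifit1* and *Irgm2*, which were not called, to show that genes of both kinds hold the element. Capitals mark the matches, on either strand, and run together where matches overlap.
*Gbp2* (chr3:142620594-142620623, + strand): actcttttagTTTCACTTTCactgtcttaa
*Gbp3* (chr3:142559995-142560024, + strand): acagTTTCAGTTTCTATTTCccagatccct
*Isg15* (chr4:156200865-156200894, - strand): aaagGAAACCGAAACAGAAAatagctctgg
*Igtp* (chr11:58199512-58199541, + strand): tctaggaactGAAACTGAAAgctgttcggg
*Ifit1* (chr19:34640794-34640823, + strand): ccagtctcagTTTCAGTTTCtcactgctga
*Irgm2* (chr11:58214903-58214932, + strand): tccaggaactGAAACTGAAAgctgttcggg

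The stretches of *Igtp* and *Irgm2* hold the same match and nearly the same flanks, and the changes of these 2 genes were 0.63 (SE 0.067) and 0.087 (SE 0.046).

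The NF-kB motif GGGANTTTCC was rarer, in 0.555% of all windows (56 genes). It was in 1.41% of those of genes that rose by at least 1 (6 genes) and 1.22% of those that fell by at least 1 (7 genes). Of the 5 CXC chemokines with a window, *Cxcl1*, *Cxcl2* and *Cxcl3* held it. Their stretches are shown beside that of *Il6*, whose level was not called different, with the match in capitals.
*Cxcl1* (chr5:90891164-90891193, + strand): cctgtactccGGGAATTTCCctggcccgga
*Cxcl2* (chr5:90903792-90903821, + strand): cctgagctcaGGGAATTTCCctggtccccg
*Cxcl3* (chr5:90786018-90786047, + strand): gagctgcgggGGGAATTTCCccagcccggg
*Il6* (chr5:30013060-30013089, + strand): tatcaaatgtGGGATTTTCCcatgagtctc

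*Cxcl1*, *Cxcl2* and *Cxcl3* share the same 10 letters. The AP-1 motif TGANTCA was in 6.51% of all windows, in 12.4% of the windows of genes that rose by at least 1 and in 7.52% of those that fell. The CRE motif TGACGTCA was in 3.57%, 2.34% and 3.5%, and the E2F motif TTTNNCGC in 9.67%, 7.03% and 11.4%. Each motif was counted by itself, and matches of different motifs may overlap. A match is a description of the letters and not of a bound factor.

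**Figure D4:**
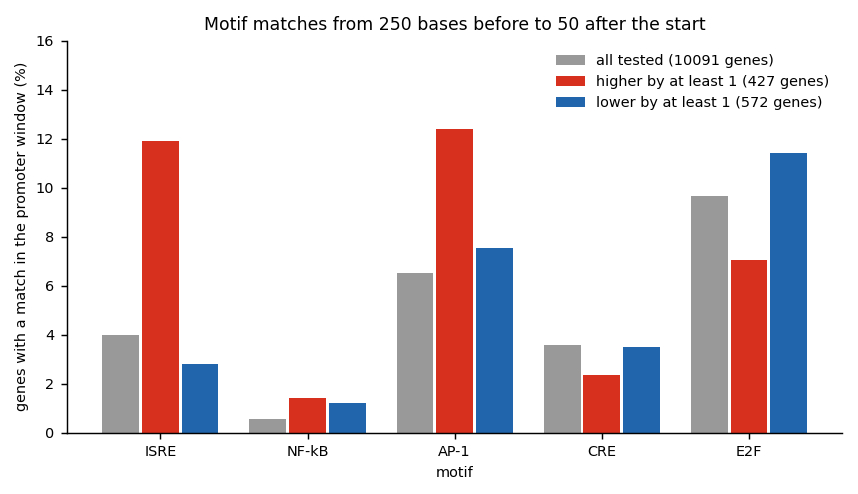
Share of genes with a motif match from 250 bases before to 50 bases after the start (percent, y axis) for 5 motifs (x axis), with grey bars for all 10091 tested genes with a window, red for the 427 that rose by at least 1 and blue for the 572 that fell by at least 1. The red bar is highest for ISRE (11.9%) and AP-1 (12.4%), and the blue bar for E2F (11.4%). For NF-kB the red bar (1.41%, 6 genes) is slightly above the blue bar (1.22%, 7 genes).

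AU-rich elements were counted in the longest annotated 3′ UTR (GENCODE M21) of 11805 tested genes. The share of genes that rose was 29.6% with no AUUUA pentamer and 42.1% with 7 or more, and the share that fell was 35.2% and 28.4%. The median UTR length of these 2 sets was 417 and 3552 bases, so pentamer number and length moved together: of genes with a 3′ UTR of over 1813 bases 40.4% rose, and of those under 685 bases 28% rose. The nonamer UUAUUUAUU, which TTP binds, was found once in 731 genes (42.3% rose, 30% fell) and 2 or more times in 215 (34.4% rose, 35.8% fell), beside 34.8% and 32.7% of the 10859 genes without it. The median UTR length of these 3 sets was 2217, 2727 and 1075 bases. Among genes with a 3′ UTR of 685 to 1813 bases 37.2% rose both with and without a nonamer, and 30.8% and 31.9% fell. Above that length 43.2% rose with and 39.9% without, and 30.1% and 29.6% fell. Under 685 bases, 33.3% of the 96 genes with a nonamer rose and 39.6% fell, beside 27.9% and 36.1% of genes without a nonamer. These length sets pool genes with 1 and with more nonamers. At a mean rlog of at least 10 at 3 hr, 43.5% of 4200 genes without a nonamer rose and 27.8% fell. With 1 nonamer 50.8% of 264 rose and 27.3% fell, and with 2 or more 33.7% of 86 rose and 34.9% fell. Their median UTR length was 1153, 2291 and 2773 bases. Genes of both directions carried the nonamer. Sites of 30 bases are shown, as DNA with the nonamer in capitals, for *Tnf*, *Cxcl1* and *Cish*, which fell, and for *Zfp36*, *Ptgs2* and *Acod1*, which rose. 
*Tnf* (chr17:35199678-35199707, - strand): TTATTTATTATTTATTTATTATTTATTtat
*Cxcl1* (chr5:90892614-90892643, + strand): tatttatgtatTTATTTATTccacaaagtg
*Cish* (chr9:107301378-107301407, + strand): atacagtatTTATTTATTTATTctccttgc
*Zfp36* (chr7:28376951-28376980, - strand): ttatgacgactTTATTTATTgtattaagat
*Ptgs2* (chr1:150105789-150105818, + strand): actgaccatatTTATTTATTtatgtgaaga
*Acod1* (chr14:103055747-103055776, + strand): tttctgaggaaTTATTTATTaactctggga

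The changes of these 6 genes were -0.41, -2.42, -3.42, 0.57, 0.87 and 0.61 in the order shown. In the *Tnf* site, overlapping nonamers fill nearly the whole stretch.

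Of 14 genes of the prostaglandin and leukotriene pathway 5 rose, 8 fell and 1 was not called (median -0.63). *Ptges*, the terminal prostaglandin E2 synthase, was at 11.65, 11.78, 11.46 and 11.31 at 3 hr and at 13.77, 13.48, 13.84 and 13.43 at 6 hr, with no overlap and a change of 2.08 (SE 0.094, adjusted p = 5.8e-07). *Pla2g4a*, which releases arachidonic acid, rose by 1.79 (SE 0.048) and *Ptgs2*, the inducible cyclooxygenase, by 0.87 (SE 0.052). The prostaglandin E2 receptor genes *Ptger2* and *Ptger4* fell by 1.84 and 1.07, *Alox5*, which starts leukotriene synthesis, by 1.36, and the constitutive cyclooxygenase *Ptgs1* by 0.95.

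Of 12 genes of arginine, nitric oxide and polyamine metabolism 7 rose, 4 fell and 1 was not called (median 0.39, and 0.23 without mouse 88). *Nos2*, the inducible nitric oxide synthase (chr11:78920787-78960226), was at 11.77, 11.84, 11.64 and 11.82 at 3 hr and at 13.83, 14.28, 13.87 and 14.38 at 6 hr. The groups lay far apart, the 6 hr values of mice 69 and 88 were higher than those of mice 25 and 87, and the change was 2.32 (SE 0.077, adjusted p = 1.9e-07). *Ass1*, which regenerates arginine from citrulline, rose by 1.84 (SE 0.067) and the arginine transporter *Slc7a2* by 1.09. The polyamine synthesis genes *Odc1*, *Srm* and *Sms* fell by 1.19, 0.69 and 0.51.

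Of 20 genes of glycolysis and glucose transport 12 rose, 3 fell and 5 were not called (median 0.21). *Pfkfb3*, which makes the activator of phosphofructokinase, rose by 1.37, the hexokinase gene *Hk3* by 1.18 and the glucose transporter *Slc2a1* by 1.14. Itaconate synthesis and TCA cycle genes were split, 7 up and 6 down of 23 (median 0.03, and -0.09 under quantile normalization). *Acod1*, the itaconate synthase, rose by 0.61 (SE 0.054) and *Idh2* fell by 0.78 (SE 0.048). Cholesterol synthesis genes rose in 17 of 21 cases and fell in 3 (median 0.63). *Lss*, which closes the sterol rings, rose by 1.23, *Hsd17b7* by 1.20 and *Mvd* by 0.84, and *Dhcr7*, which acts at the end of the pathway, fell by 0.48.

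Genes of the S, G2 and M phases of the cell cycle fell: 32 of 33, 24 of them by at least 1, with a median of -1.32 that was between -1.14 and -1.37 in the 4 mice taken singly. *Rrm2*, a subunit of ribonucleotide reductase (chr12:24708254-24714146), was at 9.60, 9.70, 9.66 and 9.79 at 3 hr and at 7.41, 7.49, 7.62 and 7.47 after 6 hr, for a change of -2.19 (SE 0.065, adjusted p = 1.2e-07) with no overlap. Cyclin A2 (*Ccna2*) fell by 1.95, the replication helicase subunit *Mcm7* by 1.91 and the proliferation marker *Mki67* by 1.32. *Cdt1*, which loads the helicase at origins, was the 1 member that rose (1.04, SE 0.069). Among 7 D cyclin and CDK inhibitor genes, 3 rose and 4 fell (median -0.61), with *Ccnd3* at 1.13, *Ccnd2* at 1.04 and the inhibitor *Cdkn2c* at -1.45. Of 27 windows of S, G2 and M phase genes, 8 (29.6%) held the E2F motif, beside 9.67% of all 10091 windows.

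Ribosome biogenesis factors fell in 23 of 27 cases and rose in none (median -0.36). *Dkc1*, the pseudouridine synthase of small nucleolar ribonucleoproteins, fell by 1.11 (SE 0.065) and *Nop58* by 1.03 (SE 0.057). Of 75 cytosolic ribosomal protein genes 47 fell, 1 rose and 27 were not called (median -0.29), and their median change was -0.48 in mouse 25, -0.23 in mouse 69, -0.46 in mouse 87 and -0.02 in mouse 88. Of 84 oxidative phosphorylation genes 28 fell, 5 rose and 51 were not called (median -0.16), with a median of -0.33, -0.10, -0.34 and 0.11 in the same mice. The sign of mouse 88 differed from that of the other mice for the latter list. Without mouse 88, 56 of the oxidative phosphorylation genes fell (median -0.24), and without mouse 25 or mouse 87 it was 16 each. The part of the spread among the 3 hr libraries in these values was not tested.

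The change from 3 to 6 hr was compared with that in Cpeb4-/- cells, from mice that the WT comparison did not use. *Cpeb4* in the knockout cells was at 9.15, 9.47, 9.18 and 9.02 at 3 hr in mice 2, 3, 55 and 62, within the WT range, and at 8.87, 9.45, 9.66 and 8.74 at 6 hr, under all 4 WT values. Reads from outside a deleted part would still be counted, so this level does not check the knockout. The groups are therefore named by their labels.

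All 575 of the genes that rose by at least 1 in WT and had a knockout value also had a positive mean change in Cpeb4-/- cells (median 1.28 in WT and 1.17 in Cpeb4-/-). Of 745 that fell, 744 had a negative one (median -1.31 and -1.34), and over all genes 88% shared the sign. The difference between the WT and knockout changes was called for 186 of 13070 genes (1.42%, limma interaction of genotype and time with the mouse as a block), 69 more positive and 117 more negative in Cpeb4-/-. Without the block 35 were called, without the trend in the variance 1, and leaving out 1 mouse gave 5 (without Cpeb4-/- mouse 62) to 1266 (without WT mouse 88), and each of the 8 mice, left out alone, moved the count by over 1.5 times. Of the 186, 117 had a smaller or opposite change in Cpeb4-/-, and the median size of the difference was 0.41. The WT change is subtracted in this difference, so an error in it alone favours a smaller or opposite change, and the count of 117 tests nothing.

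The largest called differences in the positive direction were those of *Slpi* (0.59 in WT and 1.73 in Cpeb4-/-), *Cxcl3* (-1.66 and -0.66), *Gm19313* (-0.18 and 0.82), *F3* (-0.98 and -0.13) and *Bambi* (-1.17 and -0.33). *F3* encodes tissue factor, which starts blood coagulation. In the negative direction they were those of *Hal* (-0.73 and -1.92), *Fcrl5* (0.64 and -0.47), *Gm12945* (0.88 and -0.19), *Gprc5b* (-0.57 and -1.58) and *Siglecg* (0.47 and -0.52). *Gm12945*, *Siglecg*, *Fcrl5* and *Gm19313* were weakly expressed, with WT means at 3 hr of 2.46, 3.63, 4.08 and 4.16 beside the filter of 2.32. The mean of *Hal* already differed at 3 hr, with 6.53 in WT and 8.92 in Cpeb4-/- cells. *Cxcl3* changed by -1.81, -1.61, -1.46 and -1.75 in WT mice 25, 69, 87 and 88 and by -0.46, -0.33, -0.97 and -0.88 in knockout mice 2, 3, 55 and 62. The 2 sets of mice did not overlap for *Cxcl3*, and its call held in 10 of 13 alternative settings. *Hal* spread from -1.58 to -0.09 among WT mice, and its call held in 3 of 13. The calls of *Slpi*, *F3* and *Bambi* held in 9, 8 and 10 of 13 settings and that of *Gprc5b* in 4 of 13. Those of *Gm19313*, *Fcrl5*, *Gm12945* and *Siglecg* held in 3, 5, 1 and 3 of 12.

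**Figure D5:**
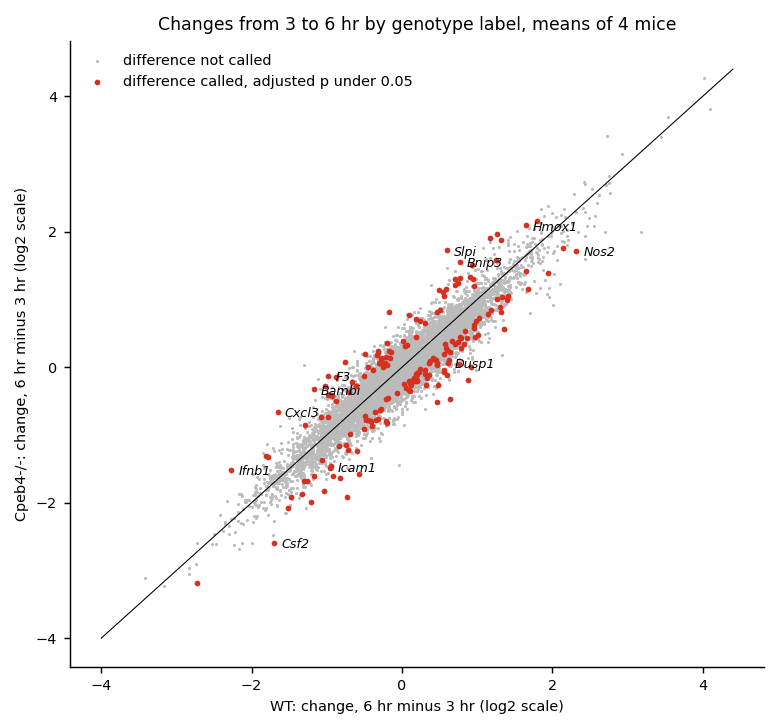
Mean change from 3 to 6 hr of 4 Cpeb4-/- mice (y axis, log2 scale) against that of 4 WT mice (x axis, log2 scale), 1 point per gene, with the line of equal change. The 186 genes whose difference was called are red. Their differences had a median size of 0.41, and the largest was 1.18 in size.

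From 6 to 9 hr the WT change differed from that of 3 to 6 hr for 7963 of 13042 genes (61.1%), 3715 more positive and 4248 more negative. Both intervals last 3 hr and share the 6 hr libraries, so an error at 6 hr moves them in opposite directions, and the values are given side by side only. *Csf3* changed by 4.01 and then by -1.30, *Clic5* by 4.09 and -1.07, *Angpt1* by 3.18 and -1.57, *Chdh* by 2.77 and -1.80 and *Fbn1* by 2.69 and -1.57. *Rhof* changed by -2.83 and then by 0.60, *Rhob* by -2.73 and 0.52, *Arrb1* by -1.52 and 1.57, *Nav2* by -2.72 and 0.34 and *Ypel3* by -1.80 and 1.25. By list, the median change was 0.83 and then -0.59 for type I interferon-stimulated genes, 1.08 and -0.98 for GBP and IRG GTPases, 2.26 and 0.11 for antimicrobial and acute phase proteins, 0.63 and 0.06 for cholesterol synthesis, and -1.32 and 0.05 for S, G2 and M phase genes.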

How the data were processed

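Gene expression in 40 libraries of BMDMs was available as 1 table, of which 8 libraries form the comparison. Per the submitters' processing notes, reads were aligned with STAR 2.3.0e to mm10, counted per gene with featureCounts and transformed with the regularized log of DESeq2. The authors deposited these log2 values, not counts, so no count test was run and depth is unknown. Whether reads were counted by strand is not given in the sources used here, so overlapping genes on opposite strands may share reads. All value columns were matched to samples by name, and no libraries were identical.

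Genes whose rlog averaged 2.32 or more were fitted with limma 3.58.1 (R 4.3.3, eBayes with trend) with the mouse as a block, and p-values were adjusted by Benjamini-Hochberg over all genes tested. The labels give each mouse the same number at both times. The deviations of the 3 and 6 hr libraries of 1 mouse from their group means correlated with r of 0.157 to 0.302, against -0.187 to 0.0226 between mice. The comparisons with Cpeb4-/- and with 6 to 9 hr used contrasts of the same kind over 16 and 12 libraries. The procedure was tested on simulated data. Alternatives left out the block, the filter, the trend, a mouse or a batch, or rescaled the libraries.

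Gene lists were written from general knowledge, and the members, lists and tests were chosen with earlier results of these data known. The genes named in the text were drawn from 24 fixed genes, the 12 largest rises and falls, the called members of each list with the largest changes and a few that complete a role, and the 5 largest called differences in each direction. Not every gene of these sets is given. Lists are described by counts and medians, with no set test. A few genes are not reported here.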

Additional observations from a re-analysis of the deposited data

Results flagged for a closer look

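In 9 of 223 named changes, 1 mouse lay farther from the other 3 than Dixon's 95% critical value for 4 samples allows, where chance alone gives about 1 in 20 such groups. Mouse 88 changed by 1.12 for *Ier3* (the others by 0.74 to 0.80), by 1.64 for *Ass1* (1.88 to 1.93) and by 1.65 for *Marco* (1.84 to 1.85). Mouse 87 changed by 1.73 for *Ifi205* (1.59 to 1.61) and by -0.05 for *Asns* (-0.26 to -0.23). Mouse 25 changed by 0.94 for *Stat3* (1.02 to 1.03), by -1.57 for *Cdkn2c* (-1.42 to -1.40) and by -0.83 for *Cdkn1a* (-0.62 to -0.61). Mouse 69 changed by -1.22 for *Nop58* (-0.98 to -0.96). All 4 mice kept the same direction in each of these 9 genes.

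For 30 of the named genes given here the change in Cpeb4-/- cells differed from that in WT by the interaction test (limma, Benjamini-Hochberg), beside 1.42% of all genes tested. Of these, 10 were named because this test gave them the largest called differences, so the count is partly set by the choice of genes. Each difference is the Cpeb4-/- change minus the WT change. It was positive for *Slpi* (1.14, SE 0.17), *Cxcl3* (1.00, SE 0.13), *Gm19313* (1.00, SE 0.22), *F3* (0.86, SE 0.13) and *Bambi* (0.85, SE 0.13). It was negative for *Hal* (-1.18, SE 0.27), *Fcrl5* (-1.11, SE 0.18), *Gm12945* (-1.07, SE 0.24), *Gprc5b* (-1.01, SE 0.22) and *Siglecg* (-0.99, SE 0.21). Among inflammatory genes, the difference was -0.60 for *Nos2* (2.32 in WT and 1.72 in Cpeb4-/-), -0.44 for *Ptgs2*, -0.54 for *Dusp1* (0.61 and 0.06), -0.89 for *Csf2*, -0.52 for *Icam1*, -0.30 for *Ptger4* and -0.29 for *Zc3h12d*. In the other direction it was 0.76 for *Ifnb1* (-2.27 and -1.52), 0.34 for *Tlr2*, 0.70 for *Casp4* and 0.58 for *Egr1*. Among genes linked to hypoxia, sugar use and oxidative stress it was 0.79 for *Bnip3* (0.77 and 1.55, adjusted p = 0.0084), 0.74 for *Ankrd37*, 0.37 for *Hk2*, 0.45 for *Hmox1*, 0.25 for *Gsr* and 0.25 for *Txnip*. For the macrophage transcription factor *Maf* it was -0.25, for the scavenger receptor *Marco* 0.35 and for *Nav2* -0.47. None of the 30 calls held in every alternative setting. They held in 1 (*Gm12945*) to 10 of 12 or 13 settings, and 20 of them held in fewer settings than they were lost in. *Cxcl3*, *Bambi*, *Dusp1*, *Icam1* and *Bnip3* held in 10 of 13, *Nos2* in 7, *Hal*, *Txnip*, *Egr1*, *Zc3h12d* and *Maf* in 3 of 13 and *Siglecg* in 3 of 12.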

How the results depend on the processing

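The number of genes changed between 3 and 6 hr stayed within 1.5 times of 8532 in every alternative, from 5962 in batch 1 alone to 9055 with all 20 WT libraries in the fit, and was 7367 to 8498 with 1 mouse left out. The number changed by at least 1 was 1054 to 1386 beside 1330, and that of genes whose change differed from the 6 to 9 hr change was 6851 to 8284 beside 7963. Without the mouse as a replicate block the 3 counts were 8182, 1328 and 7302, so the pairing changed none of them by over 1.5 times. The number of genes whose change differed in Cpeb4-/- was 186, and it was 35 without the replicate block, 7 with no filter, 1 with eBayes without trend and 5 to 1266 with 1 mouse left out. Without WT mouse 25, 69, 87 or 88 it was 66, 31, 90 or 1266, and without Cpeb4-/- mouse 2, 3, 55 or 62 it was 17, 32, 283 or 5. A stricter filter and quantile normalization gave 197 and 165. The cause was not tested.

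Of 222 named genes that were called, 192 kept their call in every alternative and 30 lost it in at least 1. Under quantile normalization *Socs3* turned to -0.01, *Atp5b* to -0.06 and the median of the macrophage markers to -0.13. Under the same setting the list medians of IRF, STAT and JAK factors, inflammasome and cell death genes, TCA cycle genes and lysosome genes turned to -0.07, -0.06, -0.09 and -0.11, and with median centring those of macrophage transcription factors, other HIF-linked genes and phagocytic receptors to 0.03, 0.05 and 0.07. Leaving out 1 mouse moved the medians of IRF, STAT and JAK factors to 0.07 (mouse 69), of NRF2 targets to 0.05 (mouse 87) and of oxidative phosphorylation genes to -0.10 (mouse 25). The median change of all genes was 0.0186 as deposited and 0.0967 with centring. Depth is not known from rlog values, so no limit on low counts can be given.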

Other observations

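Other gene groups of the same comparison moved less evenly. Of 19 Toll-like receptor and adaptor genes 12 rose, 2 fell and 5 were not called (median 0.31), beside 34.0% and 31.2% of all genes. *Tlr3* and *Tlr8*, receptors of RNA in endosomes, rose by 1.43 and 1.30 and the adaptor *Ticam1* by 0.89, while *Tlr2*, a receptor of bacterial lipoproteins, fell by 0.70. Of 21 inflammasome and cell death genes 9 rose, 4 fell and 8 were not called (median 0.11). *Mlkl*, the executioner of necroptosis, rose by 1.40 and *Casp1* by 0.88, and the proapoptotic *Bcl2l11* fell by 1.80. Immediate early transcription factors showed 10 rises and 6 falls of 22 (median 0.15), with *Fos* at 0.99 and *Nr4a3* at -1.70. Of 5 NF-kB and Rel subunit genes 3 fell and none rose (median -0.30), *Rel* by 0.60. Among 19 IRF, STAT and JAK factors 9 rose and 8 fell (median 0.17), *Stat3* at 1.00 and the interferon gamma receptor gene *Ifngr1* at -1.30.

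Of 18 scavenger, phagocytic and efferocytosis receptors 8 rose and 8 fell (median -0.01). *Marco* and the activating Fc receptor genes *Fcgr4* and *Fcgr1* rose by 1.80, 1.77 and 1.71, and *Olr1* fell by 1.29. The 12 macrophage transcription factors were split, 6 up and 6 down (median -0.05), with *Maf* at 1.26 and *Tfec* at -0.79. Of 18 NRF2 targets and antioxidant enzymes 9 rose and 8 fell (median 0.10), *Osgin1* by 1.85, heme oxygenase 1 (*Hmox1*) by 1.64 and *Sqstm1* by -1.46. Unfolded protein and integrated stress response genes rose in 12 and fell in 4 of 20 cases (median 0.22), with *Ddit3* at 1.18 and *Ppp1r15a* at -0.52. Of 16 other HIF-linked genes 5 rose and 5 fell (median -0.03), of 12 amino acid transporters 6 rose and 4 fell (0.19), of 27 lysosome genes 11 rose and 9 fell (0.03), of 8 cholesterol efflux genes 5 rose and 2 fell (0.34), and of 9 matrix metalloproteinase and TIMP genes 6 rose and 2 fell (0.42). Among them *Mmp14*, a membrane-bound collagenase, rose by 1.35, the protease *Ctsc* by 1.29 and the oxysterol receptor *Nr1h3* by 0.98, and *Adm*, which encodes adrenomedullin, fell by 1.72.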
